A study of Arabidopsis thaliana with 33 samples.

Results

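The phosphate starvation response of Arabidopsis thaliana is described here through 10 of its genes, in shoots of mutants of the chromatin remodelling factors ARP6 and BRM. The 10 genes were taken by their locus identifiers, from a list chosen with earlier results of these data known. They are SPX1, SPX3, PHO2, IPS1, AT4, PHT1;4, PAP17, PS2, SQD2 and MGD3. Of the 23044 genes listed in at least 1 of the study's 3 tables of nuclear RNA, they make up 10, and 9 of the 10 are listed in all 3 tables. IPS1 is listed in the table of the arp6;brm mutant alone.

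The groups were arp6 (allele arp6-1), brm (allele brm-1), arp6;brm (arp6-1;brm-1), the combined mutant, and wild type (WT), so that each factor is represented by a single mutant allele. ARP6 is a subunit of SWR1, the complex that places the histone variant H2A.Z into nucleosomes. BRM is a SWI/SNF ATPase that moves and evicts nucleosomes. All plants were grown on soil with 16 hours of light and 8 hours of dark, the tissue was shoot staged at 4-5 leaves, and the labels give no phosphate treatment. Each genotype had 3 libraries of RNA from isolated nuclei and 2 of MNase-digested nucleosomal DNA. H2A.Z ChIP-seq was made in 2 replicates each of arp6, brm and WT, and arp6;brm has none. Genomic DNA of 50 pooled arp6 plants was sequenced to find deletions.

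Most phosphate starvation genes are switched on by the MYB transcription factor PHR1 when phosphate is short. SPX proteins bind inositol pyrophosphates when phosphate is ample and then hold PHR1 back, and some of their genes are themselves targets of PHR1. The microRNA miR399 cleaves the mRNA of PHO2, a ubiquitin-conjugating enzyme that leads to the breakdown of phosphate transporters. IPS1 and AT4 are RNAs that bind miR399 without being cleaved and so shield PHO2. Downstream of PHR1, cells raise phosphate transporters and phosphatases, and replace phospholipids with sulfolipids and galactolipids.

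The targeted genes went with the labels. In the authors' deposited tables ARP6 had a log2 fold change over WT of -5.73 in arp6 and -5.60 in arp6;brm, and BRM had -5.64 in brm and -8.87 in arp6;brm. The leaf genes RBCS1A, CAB3 and LHCB2.1 had average levels of 6.41 to 12.3 log2 CPM (CPM, counts scaled to library size) in the authors' deposited tables. Of 3 root hair genes, COBL9 and EXPA7 were listed in no table, and PRP3 lay at -3.17 to -2.79 log2 CPM in the authors' deposited tables. The flower genes AP3, PI and AG lay at -4.08 to -3.14 log2 CPM in the authors' deposited tables. The RNA data come as 1 table per mutant of edgeR results against WT, with no values of single libraries, so no spread between replicates can be shown. A gene is called here when its adjusted p in the table (Benjamini-Hochberg over all rows) is under 0.05. All 3 tables share the WT libraries.

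Of the 10 genes, 3 were called in the combined mutant, 2 in brm and 0 in arp6. In the combined mutant, 3 of 10 listed genes rose and none fell: the phosphate transporter gene PHT1;4, the acid phosphatase gene PAP17 and the sulfolipid synthase gene SQD2. Of all genes there, 6.16% rose and 7.14% fell. At an unadjusted p under 0.05 (edgeR), 5 of the 10 were higher and 0 lower, where 11.9% of all genes were higher and 13.1% lower. In brm, 2 of 9 listed genes fell and none rose: the PHR1 inhibitor gene SPX1 and the miR399 mimic AT4, against 6.14% lower and 7.62% higher over all genes. At an unadjusted p under 0.05 (edgeR), 3 of the 9 were lower and 0 higher in brm, where 11.7% of all genes were lower and 12.4% higher. In arp6, 0 of 9 were called by edgeR, against 6.03% of all genes in either direction (3.01% higher, 3.02% lower), and 2 had an unadjusted p under 0.05 (AT4, higher, and PHT1;4, lower), against 16.3% of all genes (7.89% higher, 8.46% lower). In bulk nuclear RNA, fewer nuclei of a cell type and less RNA per nucleus cannot be told apart.

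By the authors' deposited tables, the median log2 fold change of the listed genes was 0.11 for arp6, -0.11 for brm and 1.13 for the combined mutant, where the medians of all genes were -0.02, -0.02 and 0.00. In the combined mutant 9 of 10 values were above 0, and the exception was SPX3. In arp6 6 of 9 were above 0, and in brm 3 of 9. The medians mix genes of very different precision: in the combined mutant 5 of the 10 had an average of at least 1 log2 CPM, and these 5 had a median of 0.84. The differences between mutants were not tested, since each table holds only its own comparison with WT.

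**Figure D1:**
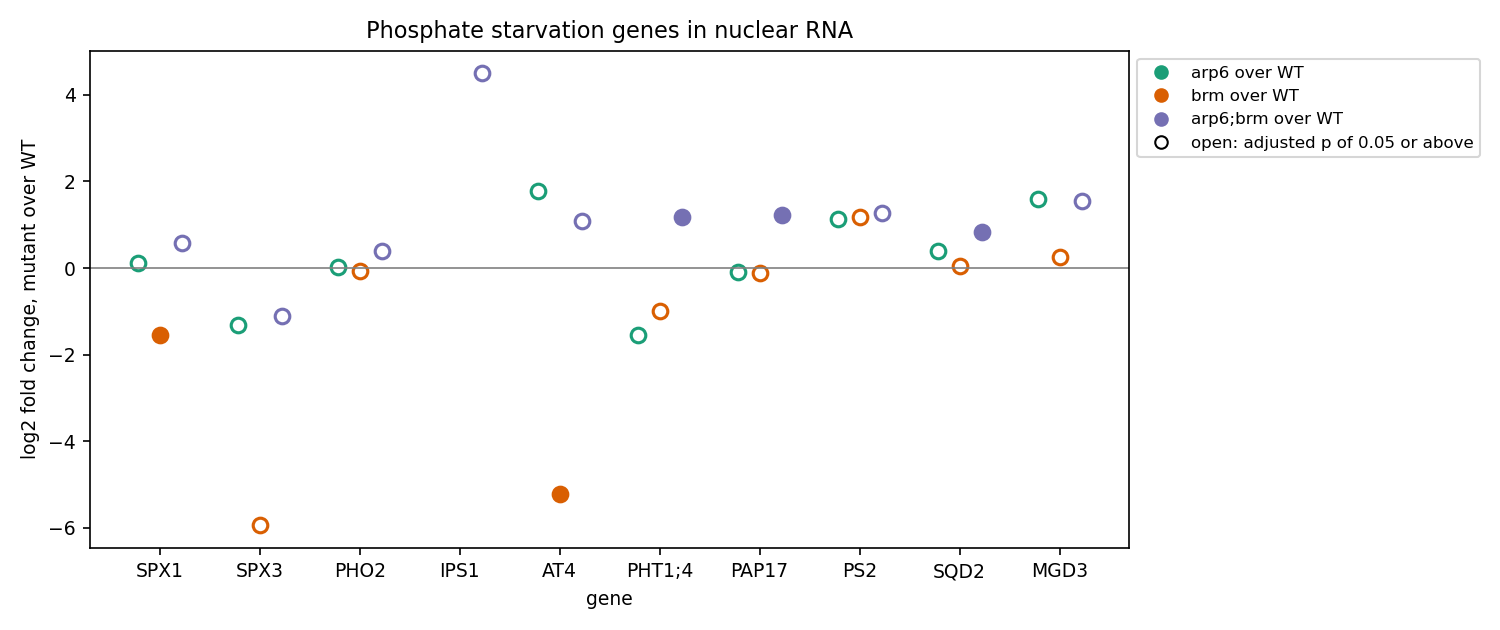
Log2 fold change of each gene in nuclear RNA (vertical axis, mutant over WT) by gene, from the authors' deposited tables, with 1 point for each of arp6, brm and arp6;brm. Filled points have an adjusted p under 0.05, and these are SPX1 and AT4 in brm, and PHT1;4, PAP17 and SQD2 in the combined mutant. IPS1 has a point for the combined mutant alone.

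SPX1 (AT5G20150, chromosome 5), a nuclear inhibitor of PHR1, was lower in brm. The levels implied by the authors' deposited tables were 6.14 CPM in arp6 against 5.68 CPM in WT, 1.83 CPM in brm against 5.30 CPM in WT, and 7.69 CPM in the combined mutant against 5.11 CPM in WT. The WT level was thus nearly the same in the 3 tables, and brm lay at 34.5% of it. In brm the authors' deposited table gives a log2 fold change of -1.53 (adjusted p = 0.00148, edgeR), with a 95% interval of -2.30 to -0.77 implied by its p-value. In arp6 it was 0.11 (adjusted p = 0.933) and in the combined mutant 0.59 (adjusted p = 0.137), both not called, in the authors' deposited tables. The interval implied for the combined mutant, 0.06 to 1.12, does not overlap that of brm, but the 2 share WT libraries and the difference itself was not tested.

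SPX3 (AT2G45130, chromosome 2), another SPX-domain gene, was near the lower end of what the tables list. Its average in the authors' deposited tables was -2.48 log2 CPM for arp6, -2.89 for brm and -2.51 for the combined mutant. The implied levels from the authors' deposited tables were 0.103 CPM in arp6 against 0.255 CPM in WT, 0.00433 CPM in brm against 0.265 CPM in WT, and 0.111 CPM in the combined mutant against 0.240 CPM in WT. All 3 mutants were thus listed below WT, and none was called. The log2 fold change in brm was -5.94 (adjusted p = 0.0930, edgeR) in the authors' deposited table. A fitted fold change at such a level depends on the prior count, and of the 200 genes nearest to SPX3 in level in the brm table, 0 were called.

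PHO2 (AT2G33770, chromosome 2), the ubiquitin-conjugating enzyme under miR399, was not called in any mutant. Its implied levels from the authors' deposited tables were 29.5 CPM in arp6 against 28.9 CPM in WT, 25.5 CPM in brm against 26.8 CPM in WT, and 34.2 CPM in the combined mutant against 26.0 CPM in WT. The log2 fold changes were 0.03 in arp6, with an implied interval of -0.36 to 0.42, and -0.07 in brm, with an implied interval of -0.47 to 0.33, in the authors' deposited tables. In the combined mutant it was 0.39, with an implied interval of 0.06 to 0.73 and an adjusted p of 0.118 in the authors' deposited edgeR table. The smallest absolute log2 fold change called among the 200 genes of nearest level was 0.60 in arp6 and 0.55 in brm, outside the intervals of PHO2 in those mutants.

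Of the miR399 mimics, AT4 was lower in brm. AT4 (AT5G03545, chromosome 5) had implied levels of 2.71 CPM in arp6 against 0.783 CPM in WT, 0.0210 CPM in brm against 0.785 CPM in WT, and 1.49 CPM in the combined mutant against 0.706 CPM in WT, from the authors' deposited tables. Its level was thus lowest in brm and was listed above WT in both mutants without ARP6. The brm value was a log2 fold change of -5.22 (adjusted p = 0.00473, edgeR) in the authors' deposited table. The number of AT4 reads in the brm libraries is not given in the tables, and the size of a fold change fitted this low depends on the prior count, so it is no bound. In arp6 the log2 fold change was 1.79 (adjusted p = 0.0811, implied interval 0.51 to 3.07) and in the combined mutant 1.08 (adjusted p = 0.262, implied interval -0.11 to 2.27) in the authors' deposited edgeR tables, neither of them called. IPS1 (AT3G09922, chromosome 3), whose levels are known to be very low outside starvation, was listed for the combined mutant alone, at an average of -3.64 log2 CPM. Its log2 fold change there was 4.50 (adjusted p = 0.354, edgeR) in the authors' deposited table, at a level where 0 of the 200 nearest genes were called.

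**Figure D2:**
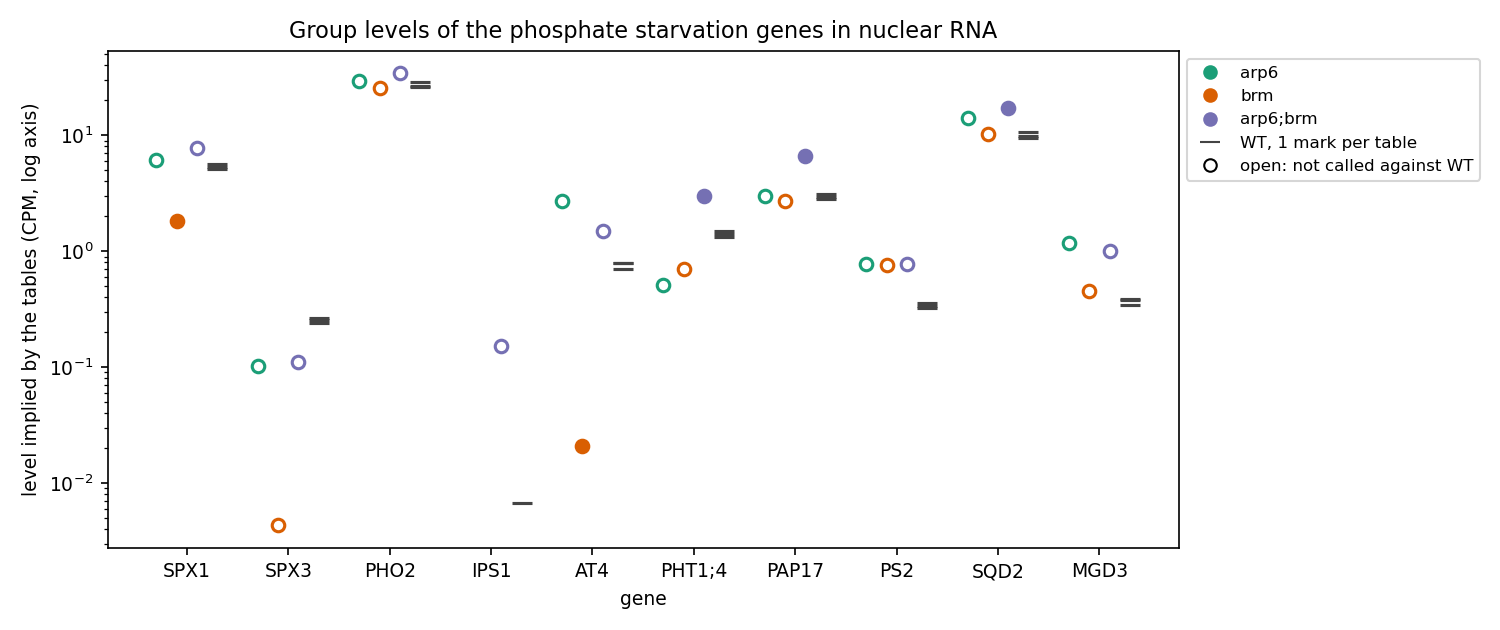
Level of each gene implied by the authors' deposited tables (vertical axis, CPM on a log scale) in arp6, brm, arp6;brm and WT, with a bar for WT from each table. The 3 WT bars of a gene lie within about 1.13-fold of each other, so a point reads directly against them. Levels are not corrected for gene length and are to be compared within a gene.

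PHT1;4 (AT2G38940, chromosome 2), a phosphate/proton symporter of the plasma membrane, was higher in the combined mutant. Its implied levels from the authors' deposited tables were 0.516 CPM in arp6 against 1.50 CPM in WT, 0.708 CPM in brm against 1.40 CPM in WT, and 3.0 CPM in the combined mutant against 1.32 CPM in WT. Both mutants of 1 factor were thus listed below WT, and the combined mutant above it. The combined mutant stood at 2.27-fold of WT, a log2 fold change of 1.18 (adjusted p = 0.0101, edgeR, implied interval 0.49 to 1.87) in the authors' deposited table. The values of -1.54 in arp6 (adjusted p = 0.233, implied interval -2.93 to -0.14) and -0.98 in brm (adjusted p = 0.421, implied interval -2.34 to 0.38) in the authors' deposited tables were not called. Among the 200 genes nearest in level, the smallest absolute log2 fold change called was 2.63 in arp6 and 2.02 in brm, against 1.00 in the combined mutant. Falls of the listed size were thus below what was called at this level. Subtracting the tables' values, the combined mutant lay 2.72 above arp6 and 2.16 above brm on the log2 scale, with no test.

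PAP17 (AT3G17790, chromosome 3), a purple acid phosphatase that frees phosphate from organic compounds, was higher in the combined mutant and was not called in the other two. The implied levels from the authors' deposited tables were 2.97 CPM in arp6 against 3.14 CPM in WT, 2.71 CPM in brm against 2.92 CPM in WT, and 6.57 CPM in the combined mutant against 2.81 CPM in WT. In the combined mutant it was 2.34-fold, a log2 fold change of 1.23 (adjusted p = 0.00194, edgeR, implied interval 0.61 to 1.85) in the authors' deposited table. In arp6 it was -0.08 (adjusted p = 0.970, implied interval -0.90 to 0.74) and in brm -0.11 (adjusted p = 0.954, implied interval -1.15 to 0.93) in the authors' deposited tables. Among the 200 genes nearest in level, the smallest absolute log2 fold change called was 1.06 in arp6 and 1.06 in brm. The annotated span of PAP17 overlaps that of AT3G17800 by 122 bp, and whether reads were counted by strand is not given in the sources used here. AT3G17800 had a log2 fold change of -0.92 in arp6 (adjusted p = 0.00137), 0.40 in brm (adjusted p = 0.288) and -0.39 in the combined mutant (adjusted p = 0.253) in the authors' deposited edgeR tables. The part of AT3G17800 reads in the PAP17 value was not tested. No other gene of the 10 overlaps an annotated gene.

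PS2 (AT1G73010, chromosome 1), an inorganic pyrophosphatase also known as PPsPase1, was listed above WT in all 3 mutants and called in none. Its implied levels were 0.777 CPM in arp6 against 0.356 CPM in WT, 0.754 CPM in brm against 0.335 CPM in WT, and 0.779 CPM in the combined mutant against 0.322 CPM in WT, from the authors' deposited tables. The authors' deposited edgeR tables give 1.13 for arp6 (adjusted p = 0.644), 1.17 for brm (adjusted p = 0.522) and 1.27 for the combined mutant (adjusted p = 0.302) as log2 fold changes, and none was called. The 3 values share their WT libraries, and the smallest absolute change called among the 200 genes of nearest level was 3.62 in arp6, 3.56 in brm and 2.03 in the combined mutant.

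SQD2 (AT5G01220, chromosome 5), the enzyme of the last step of sulfolipid synthesis, had the lowest adjusted p of the 10 genes. The levels implied by the authors' deposited tables were 14.1 CPM in arp6 against 10.6 CPM in WT, 10.2 CPM in brm against 9.85 CPM in WT, and 17.1 CPM in the combined mutant against 9.55 CPM in WT. The combined mutant was the highest, arp6 was between it and WT, and brm was next to WT. Only the combined mutant was called apart from WT. In arp6;brm SQD2 was 1.79-fold, a log2 fold change of 0.84 (adjusted p = 0.000133, edgeR, implied interval 0.48 to 1.20) in the authors' deposited table. In arp6 it was 0.41 (adjusted p = 0.341, implied interval -0.02 to 0.83) and in brm 0.05 (adjusted p = 0.958, implied interval -0.41 to 0.50) in the authors' deposited tables. MGD3 (AT2G11810, chromosome 2, listed as MGDC by RefSeq), a galactolipid synthase of the starvation response, had implied levels of 1.18 CPM in arp6 against 0.388 CPM in WT, 0.449 CPM in brm against 0.378 CPM in WT, and 1.00 CPM in the combined mutant against 0.342 CPM in WT, from the authors' deposited tables. Its log2 fold change was 1.60 for arp6 (adjusted p = 0.593), 0.25 for brm (adjusted p = 0.984) and 1.55 for the combined mutant (adjusted p = 0.483) by the authors' deposited edgeR tables, so none was called.

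The pattern of SQD2 over the 3 comparisons was compared with that of 13097 genes with an average of at least 1 log2 CPM in each table. The nearest by Euclidean distance of the 3 log2 fold changes was AT5G51770, with 0.44 in arp6, 0.06 in brm and 0.86 in the combined mutant by the authors' deposited tables (distance 0.043). EMB1444 (AT1G06150) followed at a distance of 0.102 and AT1G63420 at 0.104. With 3 values per gene this is a description only.

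Beyond these 10, the pathway was read from 57 other genes: 17 of signalling, 13 of transport, 12 of lipid remodelling, 8 of phosphatases, RNase and metabolism, and 7 microRNA precursors. Of these, 41 were listed for arp6, 42 for brm and 44 for the combined mutant. In arp6 1 rose and 0 fell, in brm 6 rose and 4 fell, and in the combined mutant 3 rose and 2 fell. At an unadjusted p under 0.05 (edgeR) there were 9 in arp6, 14 in brm and 15 in the combined mutant, where the shares of all genes were 16.3%, 24.1% and 25.0%. The medians by the authors' deposited tables were -0.06 for arp6, 0.14 for brm and 0.12 for the combined mutant on the log2 scale. Of all genes, 6.03% were called for arp6, 13.8% for brm and 13.3% for the combined mutant. None of the 7 precursors of miR399 and miR827 was listed in any table, so the microRNA arm is not seen here. PHR1 itself had log2 fold changes of -0.32 in arp6 (adjusted p = 0.432), 0.24 in brm (adjusted p = 0.537) and -0.15 in the combined mutant (adjusted p = 0.641) in the authors' deposited edgeR tables and was not called.

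Among signalling genes in brm, PHO1 (AT3G23430), which loads phosphate into the xylem, fell by 0.98 (adjusted p = 0.0149) and its homologue PHO1;H1 (AT1G68740) fell by 2.30 (adjusted p = 0.00379) on the log2 scale in the authors' deposited edgeR table. WRKY6 (AT1G62300), a repressor of PHO1, rose by 1.53 (adjusted p = 7.1e-09) and the ferroxidase gene LPR2 (AT1G71040) rose by 0.59 (adjusted p = 0.0283) in the same deposited table of the authors. The other 13 of the 17 signalling genes were not called in brm. Among them, SPX4 was listed at -1.41 (adjusted p = 0.0532), just past the limit, at an average of 0.96 log2 CPM in the authors' deposited edgeR table. SPX2 had 0.15 in brm (adjusted p = 0.841) in the authors' deposited edgeR table. In the combined mutant the single call among signalling genes was WRKY42 (AT4G04450), another WRKY factor that acts on PHO1, with a log2 fold change of -2.59 (adjusted p = 0.0325) at an average of only -1.29 log2 CPM in the authors' deposited table. PHO1 had -0.36 (adjusted p = 0.375) and PHO1;H1 -0.22 (adjusted p = 0.800) there by the authors' deposited table. WRKY6 was listed below WT there, at -0.72 (adjusted p = 0.0540, edgeR), and was not called. In arp6 WRKY6 had -0.85 (adjusted p = 0.0963) and PHO1 0.43 (adjusted p = 0.461) in the authors' deposited edgeR table, neither called. The part of WRKY6 in the PHO1 values was not tested.

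Of the transporters, PHT2;1 (AT3G26570), which carries phosphate into chloroplasts, fell in brm and in the combined mutant. Its implied levels from the authors' deposited tables were 74.3 CPM in arp6 against 106 CPM in WT, 34.9 CPM in brm against 98.5 CPM in WT, and 57.8 CPM in the combined mutant against 95.6 CPM in WT. The log2 fold changes were -0.51 in arp6 (adjusted p = 0.0516, not called), -1.50 in brm (adjusted p = 3.32e-11) and -0.73 in the combined mutant (adjusted p = 0.000587) in the authors' deposited edgeR tables. In brm the leaf gene RBCS1A was also lower, at -0.61 (adjusted p = 0.0150), while CAB3 at -0.16 (adjusted p = 0.706) and LHCB2.1 at -0.35 (adjusted p = 0.315) were not called in the authors' deposited table. The part of leaf cell number in the PHT2;1 value was not tested. The vacuolar phosphate transporter gene PHT5;1 (AT1G63010) rose by 0.72 in brm (adjusted p = 0.0106) in the authors' deposited edgeR table. Most other PHT1 genes were absent or very low: PHT1;2, PHT1;6, PHT1;7 and PHT1;8 were listed in no table. PHT1;1 and PHT1;3 had averages of -3.74 to -3.51 log2 CPM in the authors' deposited tables that list them and are near-identical copies of PHT1;2, so reads may be split among them.

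Of 11 listed lipid remodelling genes, 3 rose and 1 fell in brm, where 7.62% of all genes rose and 6.14% fell. In arp6 1 of 11 rose, against 3.01% of all genes, and in the combined mutant 1 of 11 rose, against 6.16%. SQD2 and MGD3, given above, are not counted here. In brm MGD1 (AT4G31780), the main galactolipid synthase of chloroplasts, rose by 0.65 (adjusted p = 0.0390), PLDP1 (AT3G16785), a phospholipase D, by 0.66 (adjusted p = 0.0325) and PAH2 (AT5G42870), a phosphatidate phosphatase, by 0.87 (adjusted p = 0.00551) on the log2 scale in the authors' deposited edgeR table. SQD1 (AT4G33030), which makes the sulfolipid head group precursor, fell by 0.55 in brm (adjusted p = 0.0470) in the authors' deposited table. GDPD1 (AT3G02040), which splits the glycerophosphodiesters left from phospholipids, was higher in both mutants of ARP6. It had 1.58 in arp6 (adjusted p = 0.00124) and 1.18 in the combined mutant (adjusted p = 0.0290), and 0.82 in brm (adjusted p = 0.220, not called), in the authors' deposited edgeR tables. Among phosphatases and metabolism genes, the calls were both in the combined mutant. PAP12 (AT2G27190), a secreted acid phosphatase, rose by 0.97 (adjusted p = 1.37e-06), and PECP1 (AT1G17710), a phosphatase of phosphoethanolamine and phosphocholine, by 2.81 (adjusted p = 0.0377) at an average of -1.05 log2 CPM in the authors' deposited table. PAP12 had -0.20 in arp6 (adjusted p = 0.697) and 0.21 in brm (adjusted p = 0.646) in the authors' deposited tables.

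**Figure D3:**
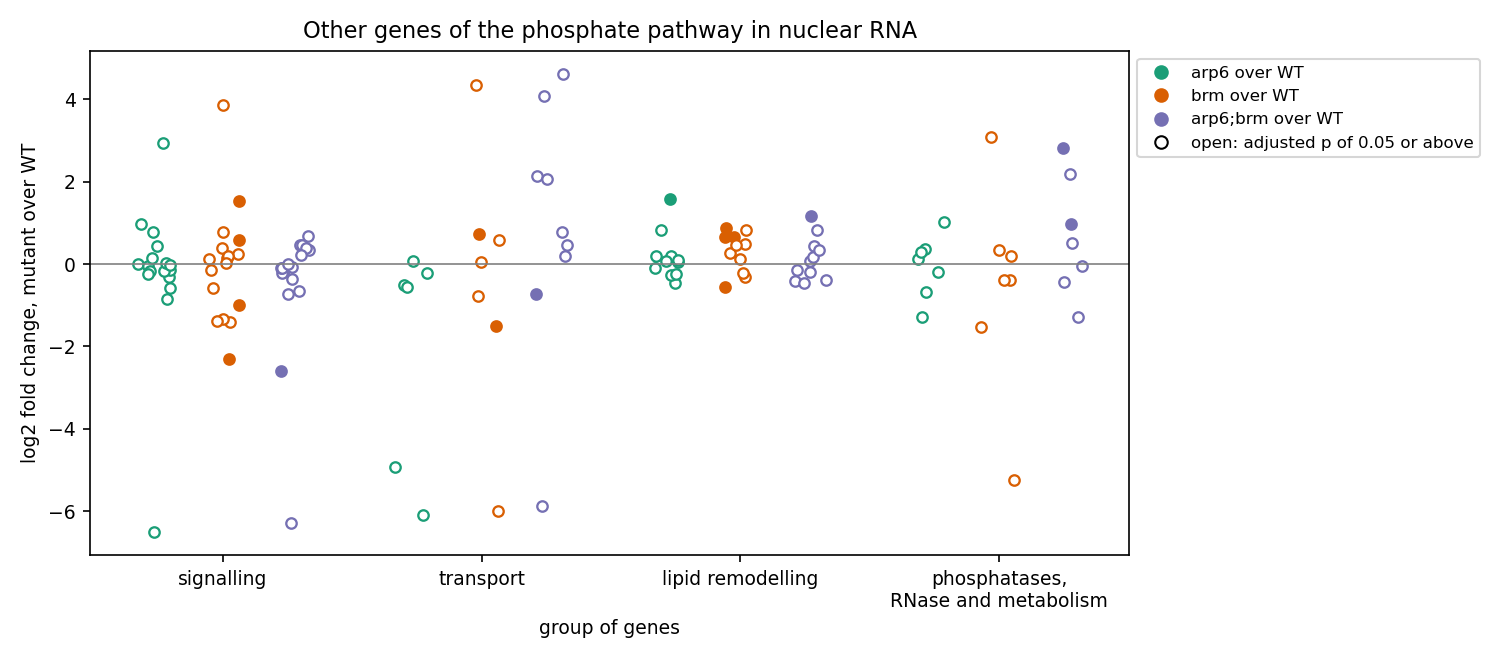
Log2 fold change over WT (vertical axis) of the other phosphate pathway genes in arp6, brm and arp6;brm, by group of genes, from the authors' deposited tables, where each point is a gene, spread sideways at random. Filled points have an adjusted p under 0.05: 1 for arp6, 10 for brm and 5 for the combined mutant, and no microRNA precursor is shown since none was listed.

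H2A.Z at the 10 genes was read from the authors' peak calls, made for each library against its input. A peak in the gene body in both replicates was found at 1 of 10 genes in arp6, 6 in brm and 6 in WT, where the shares over 27444 protein-coding genes were 3.75%, 43.2% and 31.1%. By single replicate the counts were 1 and 2 genes in arp6, 7 and 8 in brm, and 7 and 9 in WT, where the shares of all protein-coding genes were 10.8% and 11.3% in arp6, 57.3% and 51.2% in brm, and 34.9% and 56.3% in WT. Every gene of the 10 had a peak in at least 1 WT replicate, as did 60.1% of protein-coding genes. In arp6 libraries only 6.02% and 5.14% of tags lay in peaks, against 42.5% and 35.3% in brm and 24.3% and 41.8% in WT. The fragment length given in the file headers was 164 bp in both arp6 libraries, against 420 and 458 bp in brm and 458 and 414 bp in WT, and its part in the arp6 peak calls was not tested. Libraries held 7536706 and 6353934 tags in arp6, 11034796 and 5553946 in brm, and 10302678 and 15765419 in WT. WT replicate 1 was called with other limits than the other 5 libraries, and the part of these limits in differences between the WT replicates was not tested. With 2 replicates a group, no test was made. Of the 50 other protein-coding genes of the pathway, 3 (6.0%) had a peak in both arp6 replicates, 26 (52.0%) in both brm replicates and 23 (46.0%) in both WT replicates.

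SPX3 was the gene with H2A.Z peaks over its whole body. Peaks covered 25.1% and 0.208% of the body in the arp6 replicates, 100% in both brm replicates and 100% in both WT replicates. In WT the peaks ran over chr2:18606375-18609748 in replicate 1 and chr2:18605854-18610116 in replicate 2 (TAIR10), and in arp6 over chr2:18607492-18608629 and chr2:18607851-18608644. The overlap of arp6 replicate 2 was 3 bp, so that peak lay almost wholly beside SPX3. PS2 was covered over 0% and 27.5% of its body in arp6, 51.1% and 53.9% in brm, and 92.4% and 66.0% in WT. The other 8 genes had no peak in the body in either arp6 replicate, and neither had 81.7% of all protein-coding genes.

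SQD2 and MGD3 also had peaks in all 4 brm and WT libraries. SQD2 had 0% in both arp6 replicates, 23.8% and 22.2% in brm, and 22.2% and 26.3% in WT, from a peak at chr5:89323-90210 in WT replicate 1. MGD3 had 0% in both arp6 replicates, 21.1% and 17.7% in brm, and 21.2% and 20.6% in WT, from a peak at chr2:4743253-4744025 in WT replicate 1. Their peaks in brm overlapped those in WT. SQD2 was higher in RNA of the combined mutant and MGD3 was not called there, and that mutant has no H2A.Z data.

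SPX1 and AT4, the 2 genes that fell in brm, each had a peak in at least 1 brm replicate, as did 9 of the 10 genes and 65.3% of all protein-coding genes. SPX1 had a peak over 36.5% of its body in both brm replicates, and over 36.5% and 0% in WT, with 0% in both arp6 replicates. The WT call was chr5:6802324-6802824, the same interval as in brm replicate 2. AT4 was covered over 0% and 69.4% in brm and 0% and 84.7% in WT, with 0% in both arp6 replicates, and brm replicate 1 had a peak just outside it, at chr5:895859-896486. The replicates of a group thus differed at AT4 as much as the groups did.

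Of the remaining genes, PHT1;4 and PAP17, both higher in RNA of the combined mutant, had no arp6 peak. PHT1;4 had 81.7% and 54.3% of its body covered in brm, and 0% and 74.1% in WT. PAP17 had 55.8% and 0% in brm, and 40.6% and 53.8% in WT. PHO2 had 0% and 11.5% in brm, and 9.02% and 16.6% in WT. IPS1 had 0% in both brm replicates, and 0% and 81.9% in WT. Where replicates of 1 genotype differ between a call and none, these data do not separate brm from WT.

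**Figure D4:**
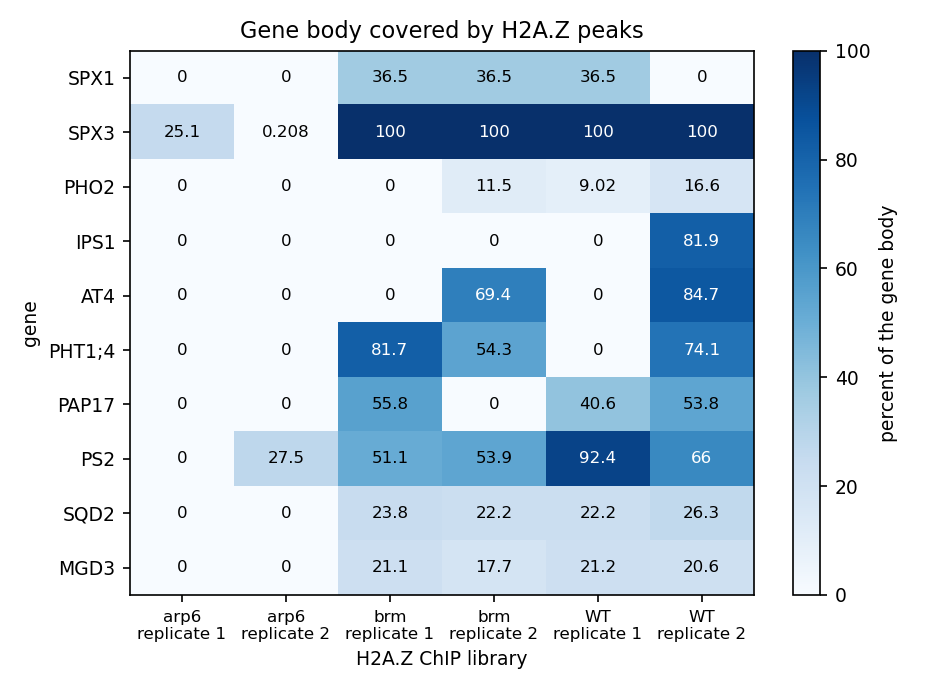
Percent of each gene body covered by H2A.Z peaks (color and printed value), with genes in rows and the 2 ChIP replicates of arp6, brm and WT in columns. The arp6 columns are 0 at 8 of 10 genes, and brm and WT columns both hold high and 0 values.

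Deletions in the arp6 genome were also set against the 10 genes. None of the 10 genes lay within 1000 bp of any of the 1545 deletion calls, and the nearest call was 1762 bp from MGD3. Of the 57 other genes, PHL1, PHT1;6 and PHT1;8 had a call within 1000 bp, and the call at PHT1;8 overlapped the gene itself. PHT1;8 was listed in no RNA table, that of brm included. It had an H2A.Z peak in both replicates of arp6, brm and WT.

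Nucleosome occupancy was given by the authors for positions along the genome, as 1 pooled data set per genotype, so no value has replicate error. A position is called here at an FDR under 0.05 and a summit log2 fold change of 1 or more in either direction. From 500 bp before to 500 bp after the 10 genes, 2 of 201 positions were called in arp6 (0.995%), 5 of 199 in brm (2.51%) and 5 of 200 in the combined mutant (2.50%). Over all positions the shares were 5.15% for arp6, 4.18% for brm and 4.68% for the combined mutant, above those at the 10 genes, with no test. The set of all positions was not limited to genes or cleared of arp6 deletion calls, so it is not matched to the 10 genes. Of the 12 calls, 11 were higher than WT. The calls are not separate observations, since the 3 comparisons share the pooled WT data. Nearly the same place was called in more than 1 mutant at AT4, SPX3 and MGD3. Over all positions, 1.06% were called higher and 4.09% lower in arp6, 2.53% higher and 1.65% lower in brm, and 1.93% higher and 2.75% lower in the combined mutant. The tables also hold a fold change at the same base in mutant and WT. By this same-base value with its own FDR and the same limits, 12 positions at the 10 genes were called as well, 9 higher and 3 lower, and 10 positions were called by both values. Over all positions this value called 1.05% higher and 4.2% lower in arp6, 2.32% higher and 1.88% lower in brm, and 1.88% higher and 2.88% lower in the combined mutant. By summits, the calls lay at 2 genes for arp6, 5 for brm and 4 for the combined mutant, and none lay at SPX1, IPS1 or PAP17. By the same-base value SPX1 had a call in brm.

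Positions in AT4, MGD3 and SQD2 had more signal than WT in all 3 mutants. They were picked by a call in at least 1 mutant, and all 3 mutants were compared with the same pooled WT data. The 3 values at a position are thus not independent. WT signal there lay below the gene's median WT signal, which was 182 in AT4, 198 to 200 in MGD3 and 162 to 167 in SQD2. Inside AT4, the position at chr5:894852 had a summit signal of 230.0 in arp6 against 106 in WT (log2 fold change 1.12, FDR 0.0659, not called), that at chr5:894812 had 228 in brm against 90.0 in WT (1.34, FDR 0.0157), and that at chr5:894802 had 210.0 in the combined mutant against 74.0 in WT (1.51, FDR 0.0278). The signal was thus above WT in all 3 mutants, while AT4 RNA was below WT in brm and listed above WT in the other two. Inside MGD3, positions at chr2:4746612 in arp6 and chr2:4746592 in the combined mutant were called, with 288 in arp6 against 130.0 in WT (1.15, FDR 0.0499) and 262 in the combined mutant against 112 in WT (1.23, FDR 0.0330). In brm the position at chr2:4746572 had 270.0 against 136 in WT, a log2 fold change of 0.99 (FDR 0.0348) that missed the fold limit. Inside SQD2, the position at chr5:87302 was called in the combined mutant, with 240.0 against 100.0 in WT (1.26, FDR 0.0349), and at chr5:87312 had 246 in arp6 against 110.0 in WT (1.16, FDR 0.0556) and 206 in brm against 110.0 in WT (0.91, FDR 0.0782).

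PHT1;4, PS2 and PHO2 had a call in 1 mutant each. PHT1;4 had a position at chr2:16257472 with 310.0 in brm against 106 in WT (1.55, FDR 0.00376), the lowest FDR of the 12. Near it, arp6 had 108 against 148 in WT (-0.45, FDR 0.430) and the combined mutant had 176 against 98.0 in WT (0.84, FDR 0.130). PS2 had chr1:27466102 with 268 in brm against 116 in WT (1.21, FDR 0.0169), and near it arp6 had 192 against 120 in WT (0.68, FDR 0.210). PHO2 had chr2:14281022 with 172 in arp6 against 48.0 in WT (1.84, FDR 0.0394). Near the PHO2 position the combined mutant had 144 against 74.0 in WT (0.96, FDR 0.125). The single lower call by summits was at chr2:4744142 in MGD3, with 76.0 in the combined mutant against 194 in WT (-1.35, FDR 0.0391), where arp6 had 178 and brm 142 at the nearest positions, each against 194 in WT. In brm, 2 positions were called lower by the same-base value alone. The position at chr5:6804077, outside the body of SPX1, had a summit signal of 140.0 in brm against 282 in WT, with a same-base log2 fold change of -1.22 (FDR 0.0169). The position at chr2:4746922, outside the body of MGD3, had 92.0 in brm against 200.0 in WT, with a same-base log2 fold change of -1.20 (FDR 0.0476). The log2 ratios of these summit signals were -1.01 at SPX1 and -1.12 at MGD3, while the deposited summit fold changes of -0.53 (FDR 0.0303) and -0.61 (FDR 0.0416) missed the fold limit.

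SPX3 had a call just outside its body in brm and in the combined mutant. The position at chr2:18605977 had 358 in brm against 170.0 in WT (1.07, FDR 0.0130), and at chr2:18606012 the signal was 328 in the combined mutant against 170.0 in WT. In arp6 the position at chr2:18605977 had 192 against 170.0 in WT (0.18, FDR 0.699, not called). The signal was thus above WT in arp6, brm and the combined mutant here too. The deposited log2 fold change at chr2:18606012 is 1.83 (FDR 0.0442), but the log2 ratio of its signals is 0.95. Likewise the called position at chr5:87832 in SQD2 had 348 in brm against 200.0 in WT, a log2 ratio of 0.80 where the deposited value is 1.69 (FDR 0.0453). Near it, arp6 had 184 against 106 in WT (0.80, FDR 0.165). The combined mutant had 208 against 200.0 in WT, a log2 ratio of 0.06 where the deposited value is 0.92 (FDR 0.876). The fold value and the ratio of the 2 signals it stands beside match within 0.01 at 43.1% of all positions for arp6, 42.7% for brm and 42.9% for the combined mutant. By the same-base value the SQD2 position was called too, at 1.15 (FDR 0.0145), and the SPX3 position in the combined mutant was not, at 1.01 (FDR 0.0548). The SPX3 position in brm missed the fold limit by the same-base value, at 0.92 (FDR 0.0313).

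The median over a gene's positions ran from -0.07 to 0.27 over the 10 genes in arp6, -0.05 to 0.22 in brm and -0.36 to 0.30 in the combined mutant, as the log2 fold change at the same base in mutant and WT, where the medians of all positions were 0.02, 0.09 and 0.08. Over all genes measured, the middle value of such gene medians was 0.06 for arp6, 0.12 for brm and 0.10 for the combined mutant. In the combined mutant the 2 lowest were SPX1, at -0.36 with 7 of 15 positions above 0, and PAP17, at -0.21 with 5 of 18 above 0. The highest were SQD2 at 0.30, AT4 at 0.29 and SPX3 at 0.29. PAP17 and SQD2 both had more RNA in the combined mutant, and their nucleosome medians lay on opposite sides of 0. Fuzziness, the spread of reads around a position, changed at an FDR under 0.05 at 13 of 201 positions for arp6 (6.47%), 16 of 199 for brm (8.04%) and 19 of 200 for the combined mutant (9.50%), where 8.7% of all positions changed for arp6, 8.88% for brm and 9.29% for the combined mutant. By number, PHO2 held the most such positions in the combined mutant, with 6 of 40, and MGD3 in brm, with 5 of 27. The genes differ in how many positions they hold. SPX1 had a larger share than PHO2 in the combined mutant, with 3 of 15, and AT4 a share close to that of MGD3 in brm, with 2 of 11.

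**Figure D5:**
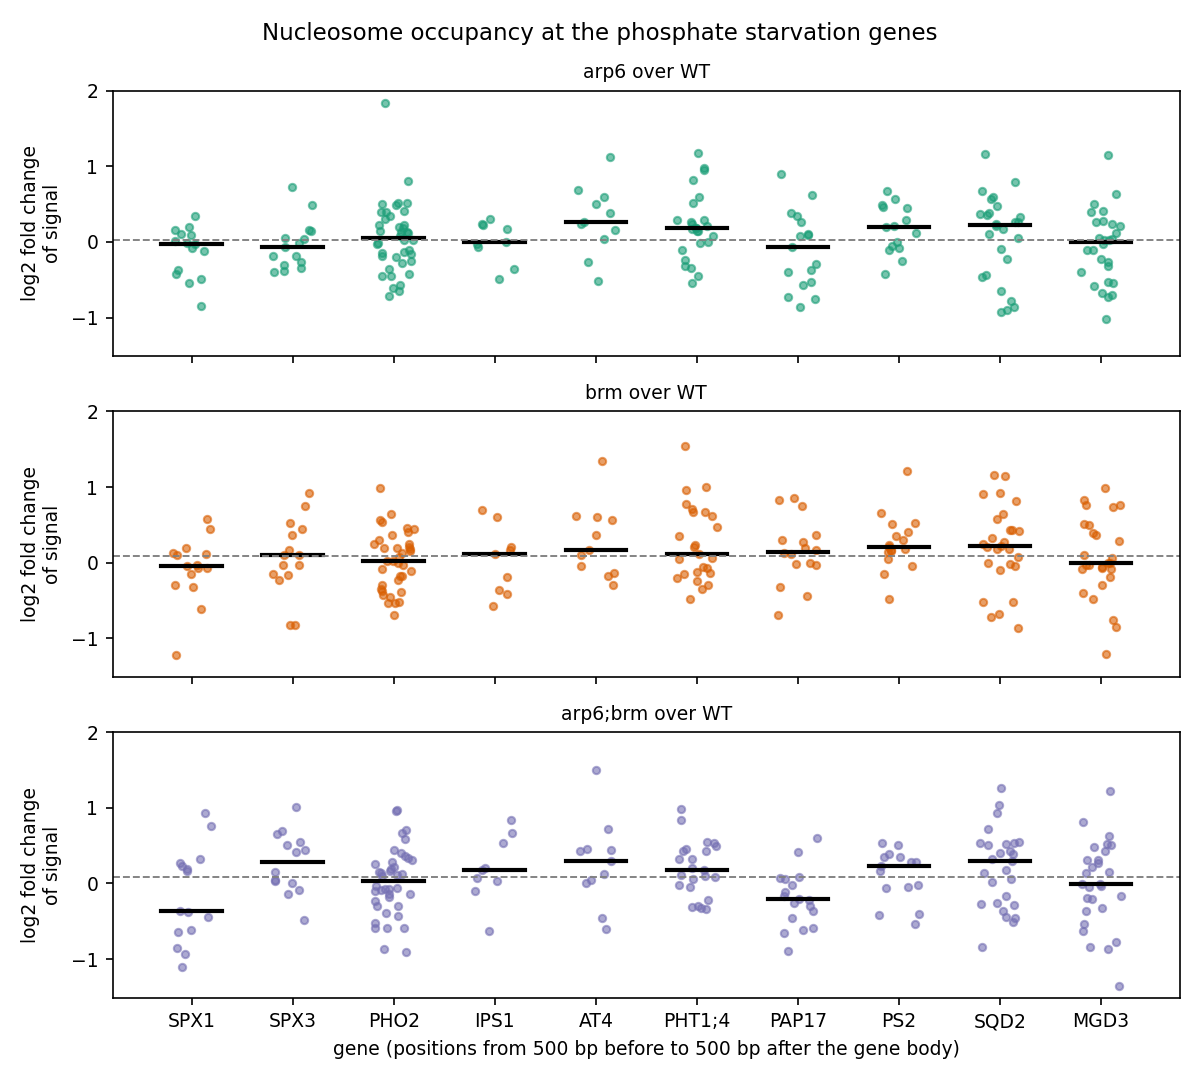
Log2 fold change of nucleosome signal over WT at each position (points) within 500 bp of each gene, in arp6, brm and arp6;brm from top to bottom, with a black bar at the gene's median and a dashed line at the median of all positions. Signals are compared at the same base in both genotypes. In arp6;brm the bar of SPX1 lies at -0.36 and that of PAP17 at -0.21, the lowest of the 10.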

How the data were processed

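The submitters' processing notes name TAIR10 with Bowtie2, SAMtools, HOMER, TopHat2, HTSeq, edgeR and BWA, and give no roles or versions. Members and gene lists were chosen with earlier results of these data known. Nuclear RNA came as 3 edgeR tables, each of a mutant against WT, in which the authors deposited a log2 fold change, an average log2 CPM, a p-value and an adjusted p-value. Per-library counts were not used here. Each table keeps 3 counter rows that name no gene, which hold 66.9% of counts for arp6, 69.3% for brm and 70.7% for arp6;brm, and CPM (counts scaled to library size) includes them. Levels of each genotype were computed from the log2 fold change and the average, taking both groups as equal in number, and intervals (95%) from the p-value by a normal approximation, for genes at an average of at least 0 log2 CPM; both are approximate. Recomputed adjusted p-values equalled the deposited ones within 3.3e-15. Where nothing says that libraries of a genotype came from separate sowings, p-values measure the spread between those libraries, which the labels call biological replicates.

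For MNase-seq, fragments over 400 bp were selected, per the labels' protocols, and the authors deposited a nucleosome signal per position in mutant and WT, its log2 fold change, a false discovery rate and a fuzziness score in bp, from pooled replicates. H2A.Z peaks were called by HOMER for each ChIP library against its input, per the file headers. The deposited score column holds 1 for every peak and was not used. Its limits were 0.01 for the FDR, 3-fold for input and 4-fold for the local region, and WT replicate 1 had 4-fold for input and 1-fold for the local region with no FDR. An overlap of at least 1 bp counted. Gene spans and symbols came from RefSeq (TAIR10.1), which matched 67 of 67 identifiers. It was used on the TAIR10 files after a check that the WT nucleosome signal dipped at gene boundaries in 10 of 10 pairs of chromosome and boundary; it has no strand, so gene spans stand in for windows around gene starts, and the binding sequence of PHR1 was not searched.

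The genes named were the 10 members, the targeted genes, the genes of the other phosphate list called in at least 1 table (up to 10 per table by adjusted p), and the 3 nearest in pattern to the member with the lowest adjusted p. Other genes of that list (PHR1, SPX2, SPX4, PHL1 and PHT1 genes), the cell type markers and the gene that overlaps PAP17 fall outside this rule and, except the markers, were chosen after their values were seen. Depth of the RNA and MNase libraries is not given in these files. Scripts used Python 3.11.15, pandas 2.3.3 and scipy 1.17.1 and were tested on simulated data. Alternatives were other limits on adjusted p, fold, level, overlap and flank, other spans and leaving out ChIP replicates.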

Additional observations from a re-analysis of the deposited data

How the results depend on the processing

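No paired analysis was possible because the RNA and nucleosome tables carry no values of single libraries and the H2A.Z counts come from no test; for the same reason no RNA library could be left out. Windows around gene starts and the search for the PHR1 binding sequence were not run. Of 51 alternative counts, 35 stayed within 1.5 times the reported one and 16 did not. Subtracting each table's median over all genes changed the direction or side of the threshold of 0 of the 28 listed log2 fold changes of the 10 genes. Those medians were -0.018 for arp6, -0.018 for brm and 0.005 for arp6;brm. Each listed value was larger in absolute size, so no direction could change. At an adjusted p under 0.1, 1 of the 10 genes is called in arp6 (AT4), and 4 of the other phosphate genes in arp6 and 9 in arp6;brm. At an adjusted p under 0.01, 2 of the 10 genes are called in brm and 2 in arp6;brm, where PHT1;4 drops out (adjusted p = 0.0101, edgeR). Of the other genes, 4 are called in brm and 2 in arp6;brm at this limit. With an adjusted p under 0.05 and a log2 fold change of 1 or more in either direction, 2 of the 10 genes are called in brm. In arp6;brm 2 are called, where SQD2 drops out at 0.84. Of the other genes, 3 are called in brm and 3 in arp6;brm with these limits. Adjusting over genes with an average of at least 1 log2 CPM leaves 1 of the 10 genes called in brm (SPX1; AT4 is below this level) and 3 of the other genes in arp6. Nucleosome positions called at an FDR under 0.01 were 0 for arp6, 1 for brm and 0 for arp6;brm. With 1000 bp on either side of the genes, chosen after seeing the data, they were 10 in brm and 9 in arp6;brm. Leaving out 1 ChIP replicate, genes with an H2A.Z peak were 1 to 2 in arp6, 7 to 8 in brm and 7 to 9 in WT, and with an overlap of at least 100 bp there were 0 in arp6, since SPX3 overlaps by 3 bp in replicate 2. The tables' depth limits the low genes: SPX3, IPS1, PS2 and MGD3 lie at an average below 0 log2 CPM in each table that lists them.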
